A study of Mus musculus with 9 samples.

Results

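The genes of MHC class I presentation were examined in sorted splenic B cells. They were chosen by gene symbol and comprise 10 of the 24346 genes in the expression tables, namely H2-K1, H2-D1, H2-T23, H2-Q7, H2-M3, B2m, Tap1, Tap2, Tapbp and Nlrc5. All 10 were found in each of the 9 libraries, and all passed the filter of a mean of at least 1 FPKM (reads scaled to the length of the transcript and the size of the library) in every comparison. RNA-seq was performed on follicular (FO) B cells of young C57BL6 mice aged 8 weeks, on those of mice aged 50 weeks, and on age/autoimmunity-associated B cells (ABCs) of 50-week-old mice, with 3 libraries per group. All mice were wild-type with no transgene or treatment. FO B cells were sorted as B220hi CD43- CD23+ CD21lo cells and ABCs as B220hi CD43- CD23- CD21lo CD11b+ CD11c+ cells, so that ABCs here are the subset that carries both CD11b and CD11c. The study describes 3 mice per group, but the labels do not tie a library to a mouse, and p-values measure the spread between these libraries.

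MHC class I molecules carry short peptides from inside the cell to its surface, where CD8 T cells and NK cells inspect them. A polymorphic heavy chain folds with β2-microglobulin in the endoplasmic reticulum, receives a peptide pumped in by the TAP transporter with the help of tapasin, and then leaves for the surface. Class I genes are transcribed in nearly all nucleated cells and are induced by interferons and NF-κB, and in lymphocytes the NOD-like protein NLRC5 drives them through a conserved promoter module. B cells carry class I molecules constitutively.

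According to GENCODE M21 (GRCm38, also called mm10), all 10 genes are protein-coding and 8 lie on chromosome 17, between 33915899 and 37274484. Tapbp (33915899 to 33929292, plus strand) and H2-K1 (33996017 to 34000347, minus strand) lie at one end of this interval. Tap1 (34187553 to 34197225) and Tap2 (34203527 to 34216321) follow on the plus strand with 6301 bases between them. Further along are H2-D1 (35262730 to 35267499, plus strand), H2-Q7 (35439155 to 35443773, plus strand), H2-T23 (36029773 to 36032855, minus strand) and H2-M3 (37270220 to 37274484, plus strand). B2m lies on chromosome 2 (122147686 to 122153083, plus strand) and Nlrc5 on chromosome 8 (94434356 to 94527272, plus strand).

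Of the 10 genes, 8 had a promoter entry in RefSeq on GRCm38.p6, Tap2 and Nlrc5 being the others. The upstream 250 bases were searched on both strands for motifs of class I promoters. The stretches of H2-K1, H2-Q7, H2-M3 and B2m are shown because they differ in which of these motifs they hold, from all 4 in H2-K1 to the different arrangement in the light chain gene. Capitals mark, in the heavy chain genes, the class I NF-κB site GGGATTCCC, the interferon response core read as TTTCACTTC on the gene's own strand, the X2-type box TGACGC, and CCAAT boxes, which appear as ATTGG when they lie on the other strand. In B2m the capitals mark an interferon response core of a different letter pattern, GAAANNGAA, and a CCAAT box. The H2-K1 stretch is chr17:34000351-34000465 on the minus strand, the H2-Q7 stretch chr17:35439015-35439151 on the plus strand, the H2-M3 stretch chr17:37270097-37270225 on the plus strand, and the B2m stretch chr2:122147540-122147646 on the plus strand. All are printed 5′ to 3′ on the strand of the gene.
H2-K1: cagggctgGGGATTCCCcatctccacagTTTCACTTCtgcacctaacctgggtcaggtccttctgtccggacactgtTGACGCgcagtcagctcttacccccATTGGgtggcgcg
H2-Q7: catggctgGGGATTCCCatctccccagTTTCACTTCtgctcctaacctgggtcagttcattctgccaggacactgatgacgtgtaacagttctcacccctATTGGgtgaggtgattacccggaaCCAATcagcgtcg
H2-M3: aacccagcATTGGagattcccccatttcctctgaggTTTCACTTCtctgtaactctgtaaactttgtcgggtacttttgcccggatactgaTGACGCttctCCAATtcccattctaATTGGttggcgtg
B2m: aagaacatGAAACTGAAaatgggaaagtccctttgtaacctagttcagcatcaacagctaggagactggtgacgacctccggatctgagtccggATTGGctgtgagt

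The class I NF-κB site was found upstream of H2-K1, H2-D1 and H2-Q7, which was 3 of 8 members, and in 0.301% of the 32851 RefSeq promoters. The interferon response core GAANNGAAA, whose letters were added after the sequences had been read, stood downstream of it in the same 3 genes and also upstream of H2-M3. It occurred in 6.31% of all promoters. The core in the opposite order, GAAANNGAA, was found in B2m and H2-T23 and in 7.13% of promoters. The X2-type box was present in H2-K1, H2-D1 and H2-M3 and in 6.12% of promoters, and H2-Q7 had no exact match to these letters. A CCAAT box was found in all 8 members and in 33.8% of promoters. Over aligned bases, the upstream sequence of H2-K1 was 88.2% identical to that of H2-Q7 and 87.4% identical to that of H2-D1, but 60.8% identical to that of H2-M3 and 58.2% to that of H2-T23. Upstream here means before the RefSeq start, and GENCODE places some of these stretches inside exons. All 138 bases from the first to the last match in H2-D1, with 8 bases on either side, lie in annotated exons of H2-D1 itself, as do all 92 in H2-T23. The stretches of Tapbp and Tap1 lie in exons of neighbouring genes, whereas those shown for H2-K1, H2-Q7 and B2m hold no exonic base and that for H2-M3 holds 6. Such matches describe the letters in this window and say nothing of binding.

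**Figure D1:**
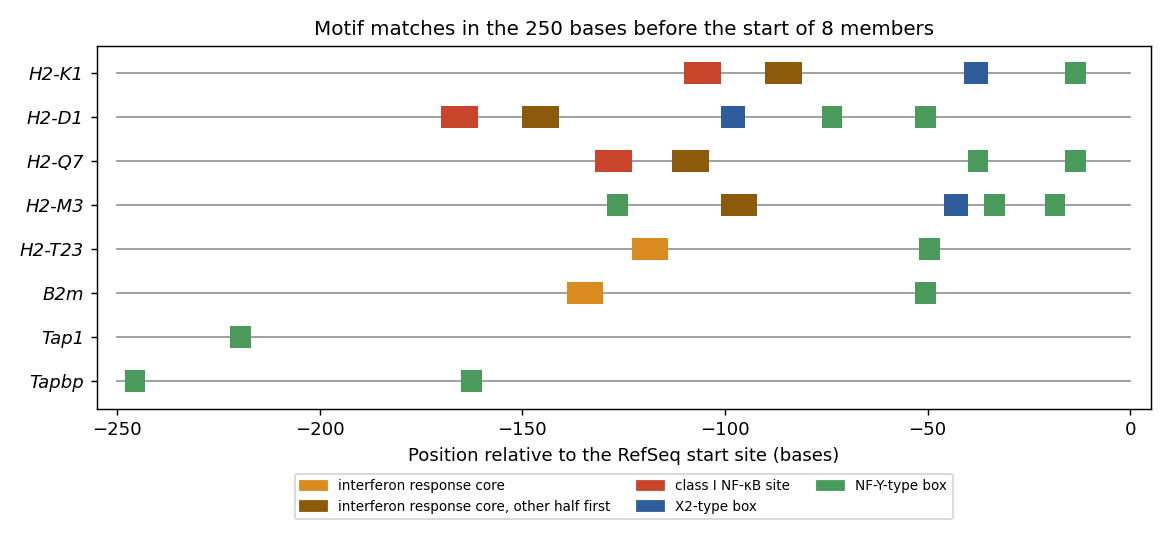
Motif matches in the 250 bases before the RefSeq start site of 8 members, drawn to scale with the distance from the start in bases on the horizontal axis. H2-K1, H2-D1 and H2-Q7 carry an NF-κB site followed by an interferon response core, H2-M3 carries the core without that site, and Tap1 and Tapbp carry only boxes of the CCAAT type.

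The libraries were of similar depth, at roughly 8.08e+06 to 9.83e+06 mapped reads as estimated from the size of a single read in the FPKM values, and 10032 to 10445 genes per library reached 1 FPKM. The sort labels were checked against their markers. Fcer2a, which encodes CD23, was at 714 ± 15.7 FPKM (SD, n = 3) in aged FO B cells and at 3.86 ± 3.25 FPKM in ABCs, whereas Itgax and Itgam, which encode CD11c and CD11b, were at 50.7 ± 7.90 and 55.1 ± 9.82 FPKM in ABCs and below 1 FPKM in every FO library. Spn, which encodes CD43, went against the gate: although ABCs were sorted as CD43-, it was at 62.6, 54.1 and 86.7 FPKM in ABCs and at 2.75 to 3.32 FPKM in aged FO B cells. Across genes, the third ABC library stood apart from the others. Its correlation of log2 values was 0.958 to 0.964 with the other ABC libraries, against 0.980 between those, and 0.878 to 0.890 with FO B libraries, against 0.909 to 0.926 for the other ABC libraries. It held the highest ABC value of every member except H2-T23. Without it, 8 members were still higher than in aged FO B cells by limma.

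Markers of other cell types also differed between ABCs and aged FO B cells. Several of the summed levels below were carried by a single gene, so members are given beside them. The summed FPKM of 6 B lineage genes overlapped, at 30367 to 32662 in aged FO B cells and 32015 to 34269 in ABCs, but Cd74 alone made up 22974 to 27958 FPKM. Within that list Cd22 was higher in ABCs (861 to 927 against 403 to 437 FPKM) and Pax5 lower (18.8 to 21.4 against 26.6 to 32.5 FPKM). The 8 macrophage and monocyte genes summed to 194 to 238 FPKM in ABCs and 9.12 to 15.3 in aged FO B cells. Adgre1 made up 174 to 222 FPKM of this in ABCs. Cd68 was also higher (6.38 to 13.1 against 3.15 to 4.70 FPKM) and Lyz2 overlapped (2.22 to 7.02 against 2.28 to 7.06 FPKM), while Csf1r, Cd14, Mertk, Fcgr1 and Marco were each under 1 FPKM in all ABC libraries. The NK cell list summed to 24.4 to 38.0 FPKM in ABCs against 0.642 to 1.01, of which Prf1 made up 24.1 to 38.0, and its other 6 genes were under 1 FPKM in all ABC libraries. The T cell list summed to 5.10 to 38.0 against 0.253 to 0.592 FPKM, of which Cd3g made up 4.93 to 37.0, and the other 7 genes were under 1 FPKM. The plasma cell list of 6 genes summed to 191 to 225 FPKM in ABCs against 129 to 148 FPKM. Jchain (12.5 to 61.6 against 2.73 to 8.44 FPKM) and Sdc1 (8.37 to 29.5 against 2.69 to 3.76 FPKM) were higher in ABCs by limma, with FDR of 0.0188 and 0.0142, and Prdm1 was at 2.93 to 5.70 against 0.180 to 0.713 FPKM. Xbp1 made up most of the sum (126 to 142 against 102 to 122 FPKM), Irf4 overlapped, and Tnfrsf17 was under 1 FPKM in all ABC libraries. The dendritic cell list summed to 251 to 258 FPKM in ABCs and 249 to 309 in aged FO B cells, nearly all of it Ccr7, whereas Zbtb46 was at 2.90 to 3.34 against 0.437 to 1.46 FPKM and Siglech at 0.664 to 1.56 against 0 to 0.360 FPKM. Flt3 had a lower mean in ABCs but overlapped, at 0.105 to 1.17 against 1.11 to 2.85 FPKM, and was not called (limma FDR 0.0862). Cd209a overlapped as well, and Xcr1 and Clec9a were under 1 FPKM in all ABC libraries. Marginal zone genes went in opposite directions beneath an overlapping sum of 196 to 245 against 223 to 252 FPKM. Cd9 (73.7 to 83.9 against 7.03 to 10.1 FPKM) and S1pr3 (40.3 to 125 against 3.64 to 4.23 FPKM) were higher in ABCs, and Cr2 (0.745 to 8.39 against 127 to 166 FPKM) was lower, as was Cd1d1. The neutrophil list summed to 0.322 to 1.31 FPKM in ABCs, with S100a8 and Elane at 0, against 1.08 to 24.4 FPKM. The part of these markers in the results below was not tested, and in bulk libraries a change in the share of cells cannot be told apart from a change of RNA per cell.

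The class I genes spanned a wide range of levels, from 6208 ± 257 FPKM for B2m to 24.4 ± 2.64 FPKM for Nlrc5 in ABCs (SD, n = 3). B2m was the most abundant of the 10 in every group, followed by H2-D1, H2-K1 and H2-T23, and Nlrc5 was the least abundant. FPKM is given per length, so levels can be compared between genes. In young FO B cells, B2m ranked 11 to 12 of all genes, H2-D1 16 to 22 and H2-K1 37 to 41. In ABCs, the ranks were 7 to 8 for B2m, 9 in all 3 libraries for H2-D1 and 13 to 15 for H2-K1. Nlrc5 lay above 34.6% to 39.3% of expressed genes in young FO B cells, above 40.1% to 48.9% in those of aged mice and above 59.7% to 64.5% in ABCs. In this order, H2-Q7 and Tapbp had overlapping values in both FO groups, as did H2-T23 with H2-Q7 and Tapbp with H2-M3 in ABCs, and all other neighbours were separate.

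**Figure D2:**
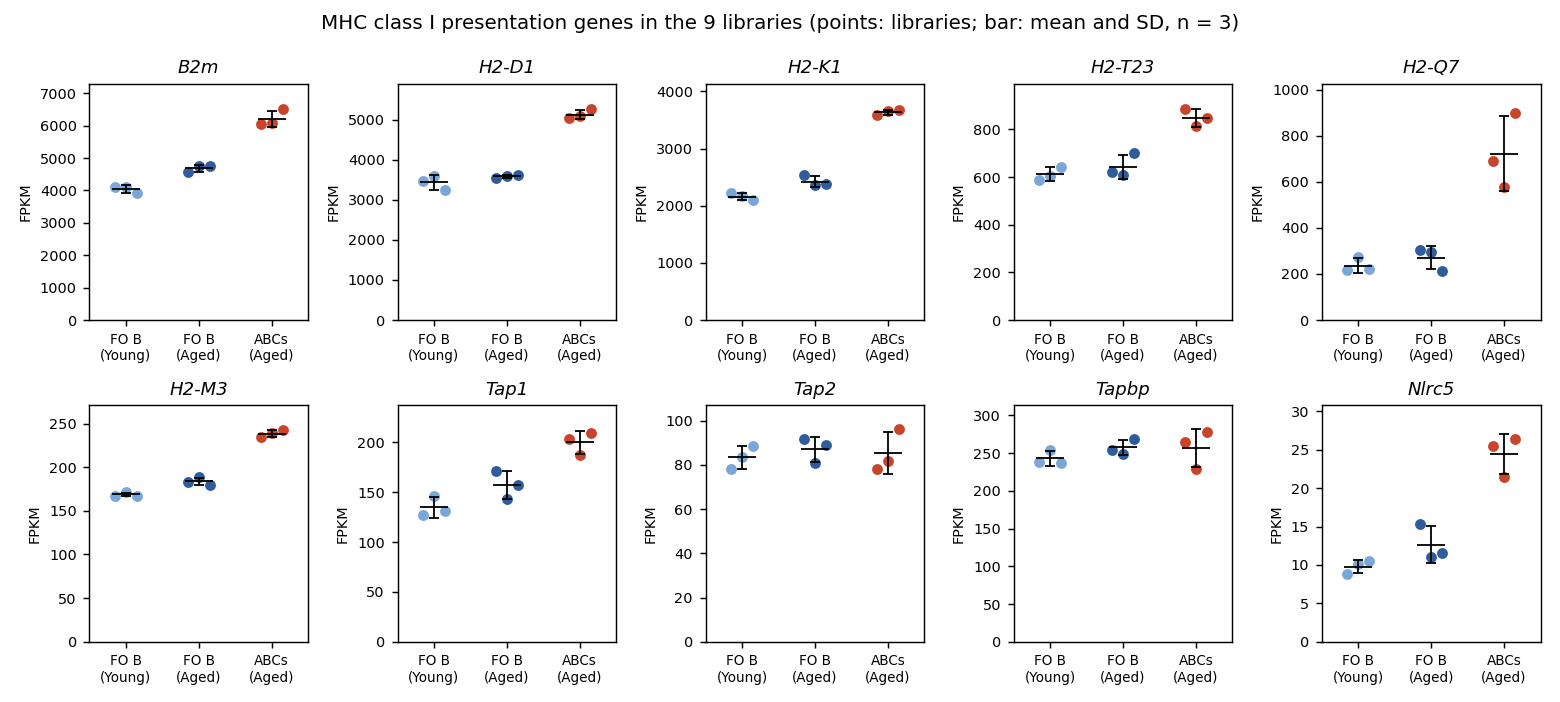
FPKM of each gene in the 9 libraries, 1 panel per gene with its own linear axis from 0; points are libraries, and bars give the mean and SD of 3 libraries. For 8 genes all 3 ABC libraries sit above all FO B libraries of both ages, whereas for Tap2 and Tapbp the 3 groups overlap.

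The comparison of ABCs with FO B cells at the same age asks which class I genes differ between the B cell subsets. The classical heavy chains, the light chain, all 3 nonclassical heavy chains, Tap1 and Nlrc5 were higher in ABCs, by 1.27-fold to 2.66-fold, and H2-Q7 and Nlrc5 changed most. Tap2 and Tapbp were close to equal. By limma on log2(FPKM + 1), 8 of 10 members were higher at a Benjamini-Hochberg false discovery rate (FDR) under 0.05 and 0 were lower, where 19.4% of the 10412 genes tested were higher and 16.5% lower. In the same 8 members the libraries of the groups did not overlap, with ABCs higher, whereas 26.3% of all genes were separate in that direction and 26.3% in the other. The median difference of the 10 genes was 0.40 on the log2 scale against -0.01 for all genes tested. With the volcano plot thresholds of an absolute log2 fold change above 2.3 and FDR under 0.01, 1.92% of genes and 0 members were called, since the largest member difference was 1.40.

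H2-K1 and H2-D1 encode the classical K and D heavy chains, which present peptides to CD8 T cells. H2-K1 stood at 2529, 2363 and 2373 FPKM in aged FO B cells and at 3581, 3650 and 3669 FPKM in ABCs. Every ABC library exceeded every FO B library. The ratio of the means was 1.5, with a log2 difference of 0.59 ± 0.0738 (SE) and a limma FDR of 0.00115. H2-D1 stood at 3545, 3583 and 3618 FPKM in aged FO B cells and at 5037, 5082 and 5259 FPKM in ABCs. The groups were again separate, by 1.43-fold and a log2 difference of 0.52 ± 0.0760 (SE), with a limma FDR of 0.00222. B2m encodes the light chain common to all of these molecules. Its values were 4560, 4743 and 4742 FPKM in aged FO B cells and 6035, 6086 and 6504 FPKM in ABCs. They did not overlap, and the rise of 1.33-fold, or 0.41 ± 0.0830 (SE) on the log2 scale, had a limma FDR of 0.00857. Without the filter on low values (24346 genes in the fit) the FDR of H2-D1 was 0.120 and that of B2m 0.339, and with quantile normalization that of B2m was 0.0727. Over the alternatives the FDR ranged from 6.24e-05 to 0.0340 for H2-K1, from 2.25e-04 to 0.120 for H2-D1 and from 0.00102 to 0.339 for B2m.

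The nonclassical heavy chains were less abundant and differed more among themselves. H2-T23 encodes Qa-1, a ligand of the NKG2A receptor of NK cells. It had 622, 607 and 699 FPKM in aged FO B cells and 887, 813 and 847 FPKM in ABCs. All ABC values were above all FO B values, by 1.32-fold on average, with a log2 difference of 0.40 ± 0.0784 (SE) and a limma FDR of 0.00708. H2-M3, whose product presents N-formylated peptides of bacteria and mitochondria, had 183, 189 and 180 FPKM in aged FO B cells and 234, 239 and 242 FPKM in ABCs. The SD within a group was 4.42 and 4.02 FPKM, and ABCs were higher by 1.3-fold, or 0.37 ± 0.0560 (SE) on the log2 scale, with a limma FDR of 0.00240. Both genes kept an FDR under 0.05 in every alternative fit, with the FDR reaching at most 0.0371 for H2-T23 and 0.0150 for H2-M3.

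H2-Q7, a gene for the Qa-2 antigen, which is tethered to the membrane by a lipid anchor, changed most of the 10. It had 304, 297 and 213 FPKM in aged FO B cells and 690, 579 and 899 FPKM in ABCs. The lowest ABC library was above the highest FO B library, and the third ABC library was the highest. The coefficient of variation was 22.5% in ABCs and 18.7% in aged FO B cells. Without the third ABC library the log2 difference was 1.24. The ratio of the means was 2.66 and the log2 difference 1.40 ± 0.192 (SE), with a limma FDR of 0.00162 and a range of 2.59e-04 to 0.0321 over the alternatives. This difference was above that of 95.5% of the genes tested. H2-Q7 shares sequence with its neighbours, so that reads could be split between these copies in either direction. By GENCODE M21, 16.2% of the windows of read length in its transcript occur unchanged in transcripts of other genes, mostly H2-Q6. The annotation behind the FPKM is not stated, so this share may not hold for them. The summed FPKM of the Qa-2 genes H2-Q6, H2-Q7, H2-Q8 and H2-Q9, a sum chosen after the values were seen, was 812, 859 and 880 in aged FO B cells and 1667, 1693 and 2230 in ABCs, the last from the third library. The sum was separate between the groups as well, by 2.19-fold (1.98-fold to 2.31-fold with any library left out), with an exact permutation p = 0.1, the smallest that 3 libraries against 3 can give. In aged FO B cells H2-Q9 was at 168, 225 and 294 FPKM, lowest where H2-Q7 was highest. Its coefficient of variation there was 27.4%, against 4.09% for the sum. In ABCs these were 15.9% and 17.05%. Whether reads were split between H2-Q7 and H2-Q9 was not tested.

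Among these copies, H2-Q9 was higher in ABCs by 1.34 ± 0.205 (SE) on the log2 scale with a limma FDR of 0.00259, and H2-Q8 by 0.63 ± 0.145 (SE) with a limma FDR of 0.0138. H2-Q6 had 144, 273 and 393 FPKM in ABCs against 181, 140 and 150 FPKM, so that the first ABC library lay within the FO B range, and its limma FDR was 0.149. H2-Q8 had 345, 280 and 269 FPKM in ABCs against 158, 197 and 223 FPKM. In the first library of both groups, H2-Q6 and H2-Q8 were at opposite ends of their ranges. Whether reads were split between them was not tested, so calls of single copies are not read as separate behaviour. In H2-T23 and H2-D1, 7.07% and 4.60% of windows were shared with other genes, and in H2-K1, B2m, Tap1, Tap2, H2-M3 and Nlrc5 none were.

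Tap1 and Tap2 encode the subunits of the peptide transporter, and Tapbp encodes tapasin, which bridges the transporter and the empty heavy chain. Tap1 had 171, 144 and 157 FPKM in aged FO B cells and 203, 188 and 210 FPKM in ABCs. The groups were separate and differed by 1.27-fold, or 0.35 ± 0.0829 (SE) on the log2 scale, with a limma FDR of 0.0161. This was the weakest of the 8 calls. Its FDR was 0.0715 with no filter, and 0.0503, 0.0521 and 0.0516 without the second FO B library of aged mice, the third FO B library of aged mice and the first ABC library. Over all alternatives it ranged from 0.00793 to 0.0715.

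Tap2 had 91.7, 80.7 and 89.0 FPKM in aged FO B cells and 78.4, 81.6 and 96.2 FPKM in ABCs. The ABC libraries held both the lowest and the highest of these values. The ratio of the means was 0.980, with a log2 difference of -0.03 and a limma FDR of 0.816, and the 95% confidence interval of the fitted fold ran from 0.838 to 1.14. Tapbp had 254, 249 and 269 FPKM in aged FO B cells and 264, 229 and 278 FPKM in ABCs. It likewise overlapped between the groups, at a ratio of 0.998, a limma FDR of 0.962 and an interval of 0.867 to 1.14. Changes beyond these intervals were not seen, and smaller ones were not resolved. Exons of other genes on the opposite strand cover 24.9% of the exonic bases of Tapbp (Gm19412) and 14.1% of those of Tap2 (Gm15821), and 212 bases of Tap1 exons lie in Psmb9 on the opposite strand. Without strand information, reads in these bases cannot be assigned to either gene. The bases shared with Psmb9 are 3.87% of the exonic bases of Tap1. Psmb9 was at 414 FPKM in aged FO B cells and 722 FPKM in ABCs, above Tap1 in both groups. The part of Psmb9 reads in the Tap1 values was not tested.

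Nlrc5 encodes the transactivator of class I genes. It had 15.4, 11.03 and 11.5 FPKM in aged FO B cells and 25.5, 21.4 and 26.4 FPKM in ABCs. All ABC libraries were above the highest FO B library. The ratio of the means was 1.93 and the log2 difference 0.91 ± 0.142 (SE), with a limma FDR of 0.00289, which ranged from 5.65e-04 to 0.0346 over the alternatives. This difference was above that of 91.9% of the genes tested and second among the members to that of H2-Q7.

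**Figure D3:**
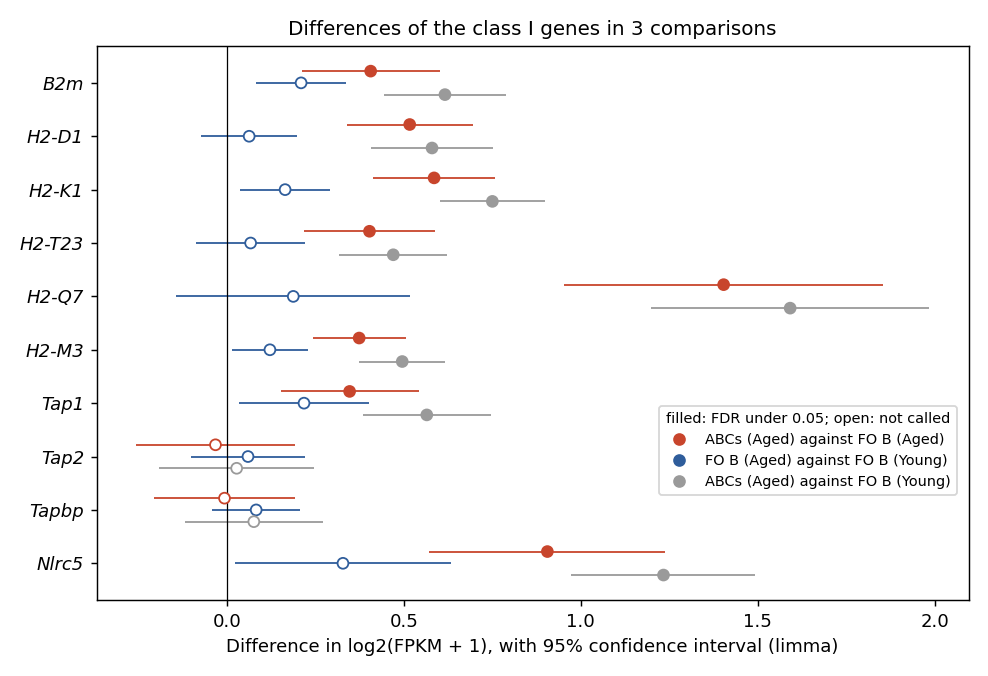
Differences in log2(FPKM + 1) of the 10 genes with 95% confidence intervals from limma in 3 comparisons, filled where the FDR is under 0.05. H2-Q7 (1.40) and Nlrc5 (0.91) lie farthest to the right for ABCs against aged FO B cells, Tap2 and Tapbp lie at 0, and no gene is filled for aged against young FO B cells.

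Ratios of members within a library do not depend on how libraries are scaled to each other. They do not remove reads from overlapping exons on the opposite strand, which concern Tap1 and Tap2. Tap1 stood at 1.80 ± 0.0520 (SD, n = 3) times the level of Tap2 in aged FO B cells and at 2.36 ± 0.213 times in ABCs. The single ratios were 1.86, 1.78 and 1.77 against 2.59, 2.3 and 2.18, and did not overlap (exact permutation p = 0.1, two-sided). For young FO B cells the ratio was 1.62 ± 0.139, below that of the aged FO B cells in every library (exact permutation p = 0.1). B2m stood at 0.780 ± 0.0255 of the summed H2-K1 and H2-D1 in aged FO B cells and at 0.709 ± 0.0172 in ABCs, again without overlap (exact permutation p = 0.1). In young FO B cells this ratio was 0.724 ± 0.00883, lower than in aged FO B cells without overlap and overlapping with ABCs (exact permutation p = 0.3). H2-K1 relative to H2-D1 was 0.676 ± 0.0323 in aged FO B cells and 0.709 ± 0.0105 in ABCs, with overlap (exact permutation p = 0.3). In young FO B cells it was 0.630 ± 0.0233, below every aged FO B library and every ABC library (exact permutation p = 0.1 in each case).

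Other ratios were chosen after the values were seen. H2-Q7 relative to H2-K1 was 0.112 ± 0.0194 in aged FO B cells and 0.199 ± 0.0435 in ABCs, a 1.78-fold difference without overlap (exact permutation p = 0.1). Tapbp relative to B2m was 0.0550 ± 0.00226 and 0.0414 ± 0.00327, and Nlrc5 relative to B2m was 0.271% ± 0.0574 and 0.393% ± 0.0366, both without overlap. Summed over the 5 heavy chain members, the level was 7101 ± 73.5 FPKM in aged FO B cells and 10569 ± 303 FPKM in ABCs. H2-Q7 made up 3.82% of this sum in aged FO B cells and 6.84% in ABCs, while H2-D1 made up 50.4% and 48.5%.

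**Figure D4:**
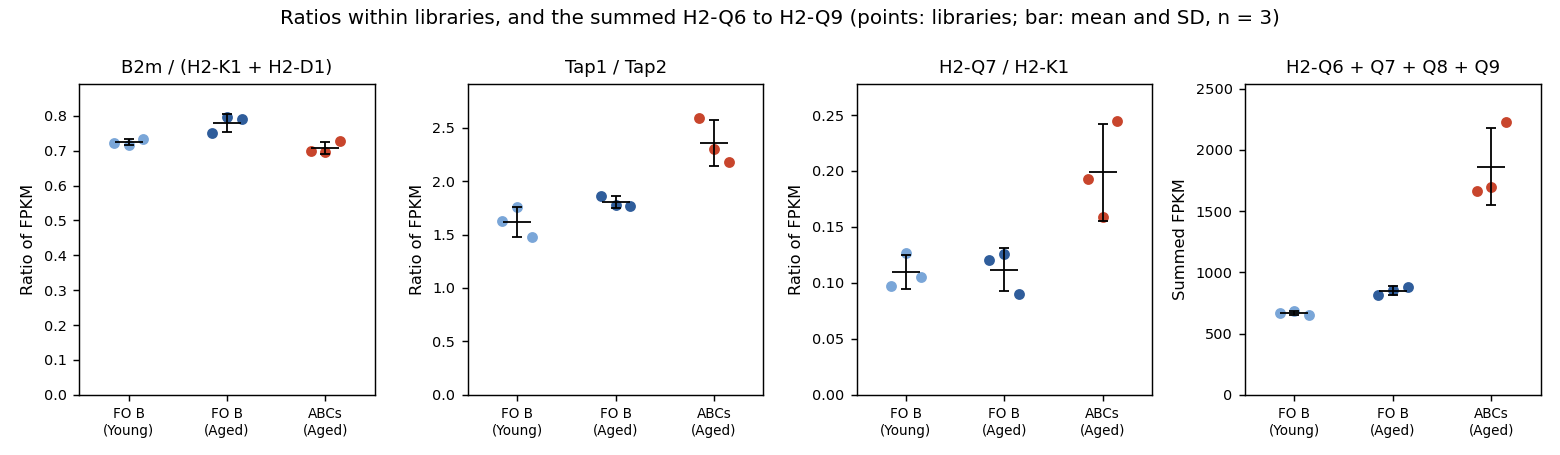
Ratios of FPKM within each library for 3 pairs of members, and the summed FPKM of H2-Q6, H2-Q7, H2-Q8 and H2-Q9; points are libraries and bars give the mean and SD of 3. The ratio of Tap1 to Tap2 and that of H2-Q7 to H2-K1 are highest in ABCs, while the ratio of B2m to the classical heavy chains is highest in aged FO B cells.

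Aged and young FO B cells were compared to ask whether age alone, within a subset, went with a change in these genes. All 10 means were higher in aged mice, by 1.04-fold to 1.29-fold, but by limma 0 of 10 members were called in either direction at an FDR under 0.05, where 0.346% of the 10122 genes tested were higher and 0.119% lower. At an unadjusted p under 0.05, 5 of 10 members were higher, against 6.96% of all genes tested, and 0 were lower, against 5.87%. In 4 members, B2m, H2-K1, H2-M3 and Nlrc5, the aged libraries lay above all young libraries, against 9.64% of all genes, and in 0 members below, against 8.96%. The median difference was 0.14 on the log2 scale for the members and 0.00 for all genes. When libraries were scaled to their upper quartile, which shifted the median of all genes by -0.12, H2-D1, H2-T23, H2-M3, Tap2 and Tapbp were lower instead of higher in aged mice.

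B2m was at 4116, 4116 and 3913 FPKM in young FO B cells, below the values of 4560 to 4743 in aged mice. The ratio was 1.16 and the limma FDR 0.173, with an exact permutation p = 0.1. H2-K1 was at 2217, 2164 and 2099 FPKM in young FO B cells, all below the lowest aged value of 2363. The ratio was 1.12 and the limma FDR 0.255. Nlrc5 was at 8.78, 10.1 and 10.5 FPKM in young FO B cells, and its largest aged value of 15.4 FPKM came from the first library. The ratio was 1.29 and the limma FDR 0.351. For H2-M3 the young values of 168, 171 and 167 FPKM were also below all aged values, at a ratio of 1.09 and a limma FDR of 0.326. Tap1 (127, 147 and 131 FPKM in young mice), H2-Q7 (216, 273 and 221 FPKM) and H2-D1 (3475, 3584 and 3236 FPKM) overlapped with the aged libraries, with ratios of 1.17, 1.15 and 1.04 and limma FDR of 0.302, 0.639 and 0.714. H2-T23 (589 to 643 FPKM), Tap2 (78.3 to 88.7 FPKM) and Tapbp (237 to 254 FPKM) overlapped as well, with limma FDR from 0.579 to 0.788. The summed Qa-2 genes were at 669, 686 and 652 FPKM in young FO B cells, which was below all aged values, at a ratio of 1.27 (exact permutation p = 0.1).

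ABCs of aged mice were also set against young FO B cells, a comparison in which subset and age differ together. By limma, 8 of 10 members were higher and 0 lower, where 21.6% of the 10438 genes tested were higher and 19.1% lower. The 8 were those found higher than in aged FO B cells. The comparisons share libraries, so their values are given side by side and not as independent evidence. H2-Q7 differed by 3.06-fold from young and by 2.66-fold from aged FO B cells, Nlrc5 by 2.49-fold and 1.93-fold, H2-K1 by 1.68-fold and 1.5-fold, B2m by 1.53-fold and 1.33-fold, and Tap1 by 1.48-fold and 1.27-fold. H2-D1 differed by 1.49-fold and 1.43-fold, H2-M3 by 1.41-fold and 1.3-fold, and H2-T23 by 1.39-fold and 1.32-fold. Limma FDR against young FO B cells lay between 1.60e-04 for H2-K1 and 0.00141 for H2-T23. Tap2 (1.02-fold, limma FDR 0.835) and Tapbp (1.06-fold, limma FDR 0.493) overlapped with the young libraries too.

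Further genes of the pathway were taken from lists that had been chosen with earlier results of these data known. Of 13 other class I heavy chains and class I-like molecules that averaged at least 1 FPKM in both ABCs and aged FO B cells, 6 were higher and 2 lower by limma, beside 19.4% and 16.5% of all genes, with a median log2 difference of 0.53. H2-Q4, H2-Q5, H2-Q8, H2-Q9, H2-T9 and H2-T22 rose, by 0.47 to 1.34 on the log2 scale. Of these, H2-Q8 and H2-Q9 are among the Qa-2 genes, between which reads could be split. Procr, the endothelial protein C receptor, whose fold resembles class I, was listed at 0 FPKM in all 6 FO libraries and at 1.98, 1.45 and 3.84 FPKM in ABCs. It passed the filter only through ABCs and is not counted. Fcgrt encodes the neonatal Fc receptor, a class I-like chain that binds IgG and albumin and pairs with B2m. It went the other way, with 29.7, 36.2 and 29.4 FPKM in aged FO B cells and 3.19, 4.41 and 2.54 FPKM in ABCs, and fell by 2.92 ± 0.170 (SE) on the log2 scale with a limma FDR of 5.08e-05. Cd1d1, which presents lipids to NKT cells, had 39.9, 52.5 and 38.7 FPKM against 27.2, 32.6 and 17.7 FPKM, and fell by 0.76 ± 0.221 (SE) with a limma FDR of 0.0329, which rose as far as 0.183 over the alternatives.

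Of 15 genes for peptide loading and trimming, 5 were higher and 0 lower, beside 19.4% higher and 16.5% lower of all genes tested, with a median log2 difference of 0.14. These were Lnpep (0.68), an aminopeptidase of cross-presentation compartments, Uggt1 (0.54), the glycoprotein folding sensor, Sec61a1 (0.51), the channel of the translocon, and the quality control genes Derl1 (0.39) and Bcap31 (0.34), with limma FDR between 0.00110 and 0.0218. The chaperones of the loading complex were not called. Calr differed by -0.11, Canx by -0.12 and Pdia3 by 0.25 on the log2 scale, with limma FDR of 0.317, 0.401 and 0.108. Tapbpl, the tapasin-related peptide editor, differed by -0.29 with a limma FDR of 0.0575.

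Proteasomes cut the peptides that TAP carries, and in immunoproteasomes the constitutive catalytic subunits are replaced by Psmb8, Psmb9 and Psmb10. Of 10 subunits and activator genes, 2 were higher and 2 lower, which is near the 19.4% and 16.5% of all genes tested, with a median log2 difference of -0.09. Psmb9, the neighbour of Tap1, had 441, 391 and 411 FPKM in aged FO B cells and 679, 690 and 796 FPKM in ABCs. The groups were separate, and the log2 difference was 0.80 ± 0.0858 (SE) with a limma FDR of 5.96e-04. Psmb8 was higher by 0.21 and Psmb10 differed by 0.04 (limma FDR 0.0439 and 0.740). Psmb6, whose product Psmb9 replaces, fell by 0.22 and Psme3 by 0.18, with limma FDR of 0.0273 and 0.0477. The calls of Psmb8, Psmb6 and Psme3 were each lost in several alternatives, with FDR as high as 0.136, 0.858 and 0.986.

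Of 26 regulators of class I transcription that averaged at least 1 FPKM in both groups, 3 were higher and 10 lower, beside 19.4% higher and 16.5% lower of all genes tested, with a median log2 difference of -0.21. The counts of this list are given for FPKM as deposited only. Scaling to the upper quartile changed the lower calls over all genes from 1719 to 601 and their median difference from -0.01 to 0.15. Prdm1, which encodes the repressor Blimp-1, had 0.713, 0.243 and 0.180 FPKM in aged FO B cells and 5.70, 4.74 and 2.93 FPKM in ABCs. It passed the filter only through ABCs, so no test is given and it is not counted. Ezh2, the Polycomb methyltransferase, rose by 1.08 on the log2 scale, and Irf8 and Ciita, the class II transactivator, by 0.55 and 0.44. Jak2, a kinase of the interferon-γ receptor, had 23.7, 29.2 and 27.3 FPKM against 10.2, 11.8 and 5.18 FPKM, and fell by 1.52 ± 0.259 (SE) with a limma FDR of 0.00406, or 0.0528 with no filter. The other lower genes were Crebbp (-0.52), Irf9 (-0.47), Nfyb (-0.41), Rfx5 (-0.37), Ifnar1 (-0.36), Ep300 (-0.36), Irf2 (-0.35), Ifngr1 (-0.35) and Creb1 (-0.29). Rfx5 and Nfyb belong to the complex that sits on the X and Y boxes of class I and class II promoters. Irf1 was not called, at -0.20 with a limma FDR of 0.117.

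Of the list for class I turnover, 7 genes were found in the tables and 5 tested, of which 2 were higher and 2 lower, beside 19.4% higher and 16.5% lower of all genes tested. Ube2j1, a ubiquitin-conjugating enzyme of the endoplasmic reticulum, rose by 0.76 (limma FDR 9.75e-04) and its partner ligase Syvn1 by 0.28 (0.0412, up to 0.135 over the alternatives). Tmem129 and March1, both ubiquitin ligases, fell by 0.53 and 0.42, with limma FDR of 0.00495 and 0.00801. Over the alternatives these reached 0.0677 and 0.260. Between aged and young FO B cells, Irf1, an interferon-induced activator of class I genes, was the single gene called in any of these lists, at 144, 145 and 154 FPKM in young mice and 230, 189 and 202 FPKM in aged mice. Its log2 difference was 0.48 ± 0.0755 (SE) with a limma FDR of 0.0404. That call was lost in several alternatives, at an FDR of up to 0.331, and without any single library except the second aged library, at 0.0722 to 0.190.

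**Figure D5:**
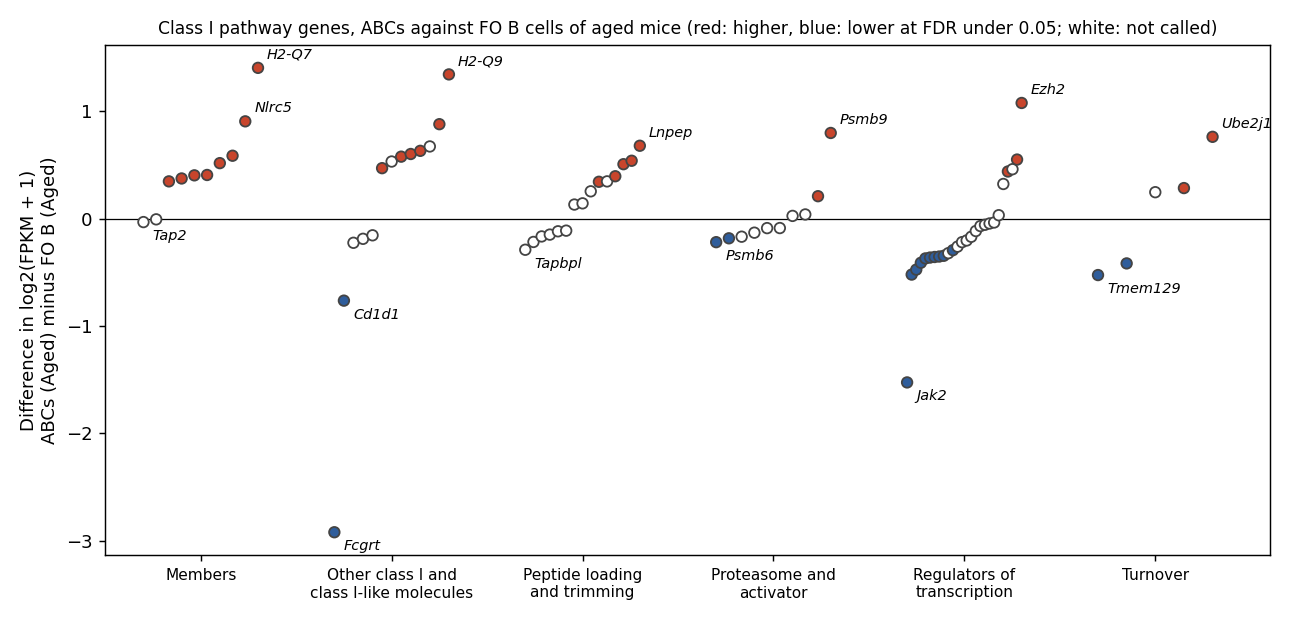
Differences in log2(FPKM + 1) between ABCs and aged FO B cells for the 10 members and the genes of 5 pathway lists, 1 point per gene tested, red or blue where higher or lower at an FDR under 0.05 (Procr and Prdm1, which passed the filter only through ABCs, are not drawn). Fcgrt (-2.92) stands lowest, and the regulators of transcription hold 10 blue points against 3 red.

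The genes whose pattern over the 9 libraries was most like that of H2-Q7 were sought among 10375 genes by the root mean square difference of centred log2 values. The nearest were Cyp4f16 (0.13), Htatip2 (0.14), Ahcyl2 (0.16), Cybb (0.16) and Syt11 (0.17), none of which lies among the class I genes. Nlrc5 was the nearest member, with a difference of 0.28 and rank 153, followed by H2-K1 with 0.45 and rank 704.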

How the data were processed

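RNA-seq data of 9 libraries were analysed, with groups and replicate numbers taken from the sample labels. The deposited values are FPKM, with a single value for each gene symbol in each library. Per the methods and labels, cDNA was prepared with the SMART-Seq HT kit, which does not mark strand, libraries with a Nextera kit, and single-end reads of 101 bases were mapped to mm10. The submitters' processing notes name TopHat2 2.1.1, Bowtie2 2.2.8, SAMtools 0.1.18 and Cuffdiff 2.2.1, whereas the study's methods give other versions and name Cufflinks for the FPKM. The gene annotation is not given in the sources used here. How reads that fit several genes were assigned is not stated, which bears on H2-Q7 and its copies.

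From these values, log2(FPKM + 1) was modelled in limma (version 3.58.1, R 4.3.3) by lmFit and trended eBayes on the 6 libraries of the groups compared. Genes averaging 1 FPKM or more entered, with Benjamini-Hochberg adjustment over all genes tested and calls at an FDR under 0.05. Fold changes on this scale understate the change of low genes. The step was run on simulated data, but only for genes averaging 5 FPKM or more and absolute log2 changes of 1 or more. It does not bear on smaller differences, such as those of most members. Ratios and sums were tested by an exact two-sided permutation test over 20 orders, with a smallest p of 0.1. Depth was approximated from genes of a single transcript at 1 read, assuming fragments of 200 bases. Counting error is not given, because FPKM are not counts. Other steps used Python 3.11.15, numpy 2.4.6, pandas 2.3.3, scipy 1.17.1 and matplotlib 3.10.9.

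The members and gene lists were chosen with earlier results of these data known. Named genes beyond the members were those called between ABCs and aged FO B cells with an absolute log2 difference of at least 1, otherwise the largest in each direction per list, and the 5 genes most like the member that changed most. The other called genes, the loading chaperones, Psmb10, Irf1, H2-Q6 and H2-Q8 were named after their values were seen. Of the gene lists, 2 genes are not reported here, and counts and sums leave them out. Procr and Prdm1, which averaged under 1 FPKM in FO B cells, were taken out of the list counts after the values were seen, and with them 7 and 4 genes of their lists were higher. The alternatives changed the pseudocount (0.1 or 0.01), the filter (none, or 5 FPKM), the scaling (quantile, TPM or upper quartile), the trend, the libraries fitted (all 9, or each left out), the thresholds, and the use of replicate numbers as blocks.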

Additional observations from a re-analysis of the deposited data

How the results depend on the processing

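Between ABCs and aged FO B cells, 8 members were higher by limma in every setting except with no filter (5 members), quantile normalization (7), an FDR under 0.01 (7), the volcano plot thresholds (0) and leaving out a library (7 to 8). Of 100 member values under other fits, 94 kept their direction and call, 4 lost the call and 2 turned sign, and of 60 values with a library left out, 53, 3 and 4 did so. The sign changes concern Tap2 and Tapbp, which had differences near 0, namely 0.15 and 0.17 when scaled to the upper quartile and -0.12 to 0.0264 and -0.0649 to 0.0736 with a library left out. Over all genes, 3739 were called, against 200 at the volcano plot thresholds, 2072 at an FDR under 0.01 and 2550 to 3643 with a library left out. Of all calls, 54.0% were higher in ABCs, against 44.8% with quantile normalization and 80.3% when scaled to the upper quartile, where the median of all genes moved to 0.15. The cause of these shifts was not tested.

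Between aged and young FO B cells, 0 members were called in any setting. Over all genes, 47 were called (35 higher and 12 lower), against 30 without a trend, 20 with all 9 libraries in the fit, 2 at the volcano plot thresholds, 17 at an FDR under 0.01 and 19 to 69 with a library left out, of which 19 was without the first and 69 without the second aged library. It was 21 and 23 without the first and second young library. Scaled to the upper quartile, 23 were higher and 27 lower, and H2-D1 (-0.0671), Tap2 (-0.0689), Tapbp (-0.0468), H2-T23 (-0.0627) and H2-M3 (-0.0077) turned sign. Between ABCs and young FO B cells, 8 members were higher in every setting except no filter (6) and the volcano plot thresholds (0). Over all genes, 4248 were called, against 2779 when scaled to the upper quartile, 230 at the volcano plot thresholds and 2465 at an FDR under 0.01, with 53.0% of calls higher, against 66.6% when scaled to the upper quartile. Tap2 was at -0.0619 with quantile normalization, -0.0182 when scaled to TPM and -0.0602 to 0.0862 with a library left out, and Tapbp at -0.036 with quantile normalization.

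Same-numbered libraries did not deviate together in every pair (correlations of 0.0845, -0.019 and 0.108 between aged FO B cells and ABCs), so the number was not taken as a pairing. With the replicate block, 3448 genes were called between ABCs and aged FO B cells, 37 between aged and young FO B cells and 3508 between ABCs and young FO B cells, and 8, 0 and 8 members were higher. The ratios kept their direction with any library left out in every case with separate groups. With 3 libraries per group, small differences such as those of FO B cells with age are near the limit of what these data resolve.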
